A study of Mus musculus with 6 samples.

Results

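The 120 genes described here code for 2 sets of proteins that mitochondria depend on, the carriers of the Slc25 family and the proteins of the mitochondrial ribosome. They were defined by symbol, as genes whose single platform symbol starts with Slc25a, Mrpl or Mrps followed by a digit, and they are 120 of the 18193 genes measured. The choice was made with earlier results of these data known. The carriers number 44 and the mitochondrial ribosome genes 76, with 47 for the large subunit (Mrpl) and 29 for the small subunit (Mrps). The samples were cochlear lateral wall, the outer wall of the cochlear duct with the stria vascularis and the spiral ligament, taken by microdissection from CBA/CaJ mice. The OldAdult group held mice of 1.5 years and the YoungAdult group mice of 1 to 3 months, with 3 arrays each. CBA/CaJ is an inbred strain, and both groups were bred in a quiet facility. Mice of both sexes were used, but the labels do not give the sex behind each array. The labels do not say whether an array stands for 1 animal or a pool, so the p-values speak only of the variation between arrays, which may be technical. Values are log2 signals of 1-colour Affymetrix 3′ arrays, each difference is OldAdult minus YoungAdult, a mean carries ± SD with n = 3 arrays per age, and a difference carries ± its standard error.

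Most mitochondrial carriers are small proteins of the inner mitochondrial membrane that move nucleotides, phosphate, carboxylates, amino acids and cofactors between matrix and cytosol. The members of both families were taken by symbol, and the place and role of each protein were not checked. The mitochondrial ribosome makes the few proteins encoded by mitochondrial DNA, all of them subunits of the respiratory chain or of ATP synthase, and its protein parts are all encoded in the nucleus. The stria vascularis keeps up the endocochlear potential by active ion transport and is rich in mitochondria, and in humans some variants of the mitochondrial small-subunit ribosomal RNA cause hearing loss.

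Most markers of lateral wall cells gave a signal above the median over the tested probe sets, 6.28. Of 25 measured markers of strial and fibrocyte cells, 23 had a mean above it in at least 1 age group. The same held for 64.8% of all genes and for all 6 osteoblast and osteocyte markers, so this count does not show tissue identity. Markers of some other cells moved with age, at an adjusted p under 0.05 in limma, which called 4.78% of all genes. Of 8 skeletal muscle, 5 neuron and Schwann cell and 6 endothelial markers, 0 were called. Of 6 osteoblast and osteocyte markers, 3 were called lower in old samples, and the log2 of their summed signal was 11.29 to 11.69 in old and 12.44 to 12.73 in young arrays. Of 7 neutrophil markers, 6 were called lower, with summed levels of 9.41 to 10.48 in old and 11.06 to 11.73 in young arrays. Of 6 erythroid markers, 1 was called lower, with summed levels of 12.09 to 12.17 in old and 12.19 to 12.24 in young arrays. Of 8 macrophage markers, 3 were called higher (Lyz2, Cd68 and Clec7a) and 5 were not called, 3 of these with differences below 0, down to -0.33 for Cd163. Their summed levels, in which Lyz2 weighs most in old arrays, were 12.65 to 12.77 in old and 11.69 to 11.90 in young arrays. The signal of a probe set on such an array has no true 0, so no marker could be called absent. Xist, which female cells transcribe from their silenced X, was at 12.24 to 12.65 in old arrays and at 12.31, 6.06 and 11.95 in young arrays. The low value of young replicate 2 is one that tissue from males alone gives, while the other 5 arrays held RNA of females. Whether those 5 also held RNA of males was not analysed, so sex may not have been balanced between the ages. The excess of the 3′ over the 5′ control probe sets of Gapdh was 1.26 to 1.45 in old and 1.07 to 1.25 in young arrays, and that of Actb 1.39 to 1.84 in old and 1.46 to 1.60 in young arrays. The part of these differences in the results on mitochondrial genes was not tested. In whole tissue, fewer cells of a type and less RNA per cell cannot be told apart.

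The carriers differed little between the ages, with 3 exceptions. Slc25a25, a carrier that exchanges ATP-magnesium for phosphate and is gated by calcium, and Slc25a33, a carrier of pyrimidine nucleotides, were lower in old lateral wall. Slc25a14, a relative of the uncoupling proteins, was higher. Of 44 carriers, 1 was called higher, 2 lower and 41 were not called at an adjusted p of 0.05 (limma, Benjamini-Hochberg over all probe sets), or 6.82%. Over all 18193 genes the same test called 4.78%, with 2.45% higher and 2.33% lower, so the share among the carriers was near that background. The median difference over the carriers was 0.05, beside 0.03 over all genes, and 38 of 44 carriers (86.4%) had a difference smaller than 0.25 in size, beside 81.4% of all genes. The 95% confidence interval lay within 0.25 log2 of 0 for 11 of 44 carriers and within 0.5 for 37.

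**Figure D1:**
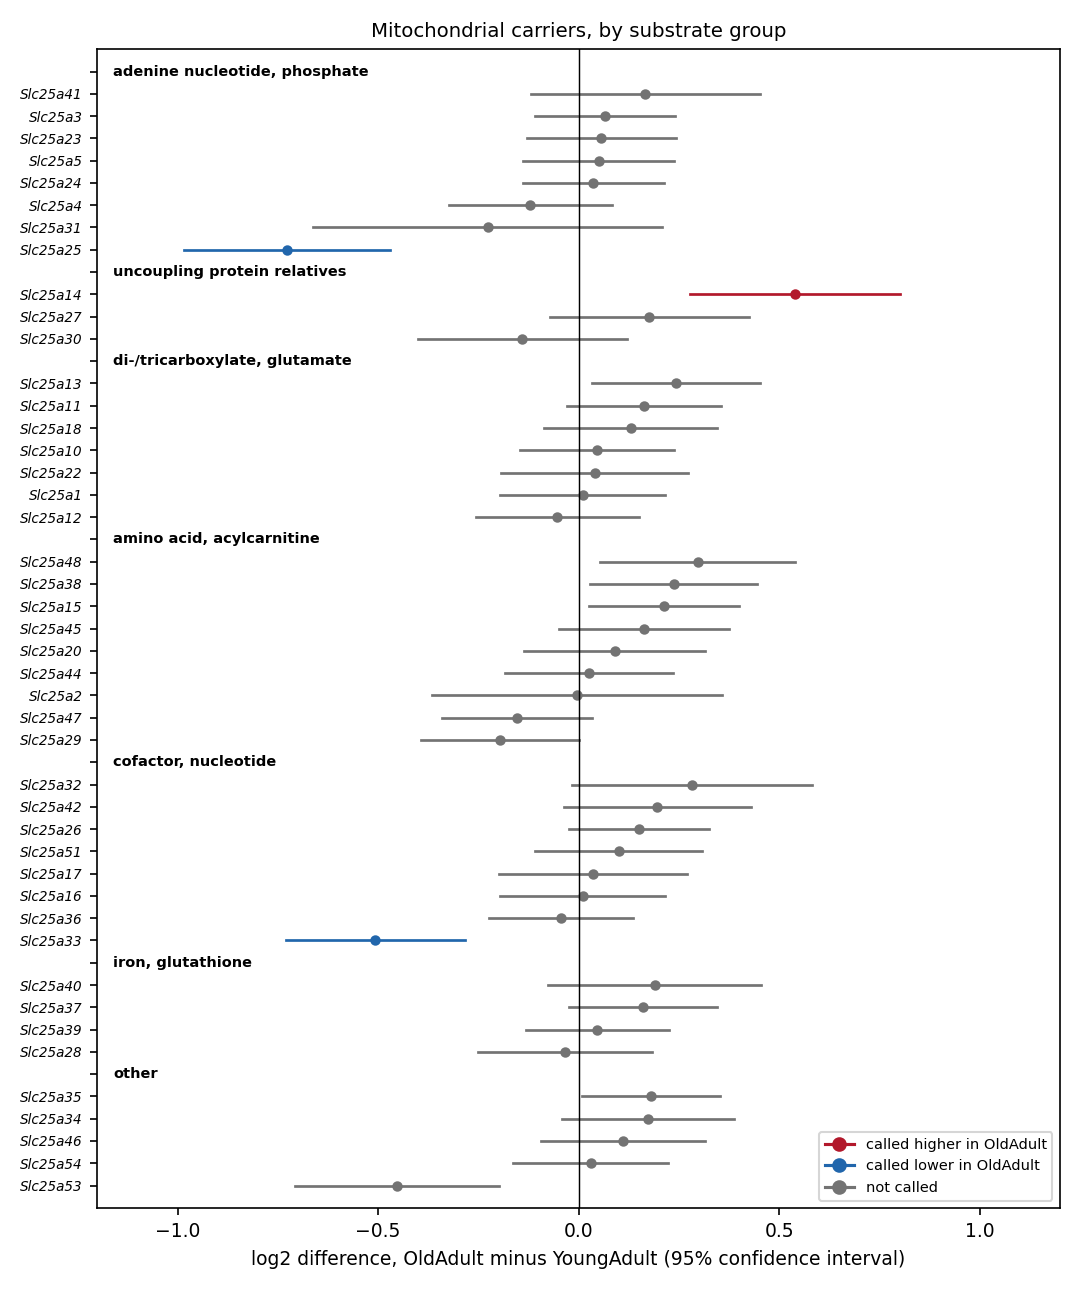
Log2 difference, OldAdult minus YoungAdult, for the 44 mitochondrial carriers in 7 substrate groups, with points for the difference and bars for its 95% confidence interval from limma. Slc25a14 stands to the right of 0 at 0.54, Slc25a33 and Slc25a25 stand to the left at -0.51 and -0.73, and the other carriers lie between -0.45 and 0.30.

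Slc25a25, on chromosome 2, had log2 signals of 8.68, 8.48 and 8.83 in old arrays and 9.35, 9.28 and 9.54 in young arrays. Every old value lay below every young value. The means were 8.66 ± 0.18 in old and 9.39 ± 0.13 in young lateral wall, a difference of -0.73 ± 0.11, which is 0.604 times the young level (limma adjusted p = 0.0121). A second probe set of Slc25a25 was at 6.62, 6.78 and 6.84 in old and 7.42, 7.21 and 7.46 in young arrays and was called as well, at -0.62 ± 0.10 (limma adjusted p = 0.0143). The dimmest one was not called, with means of 5.76 in old and 5.69 in young arrays (limma adjusted p = 0.762), and the mean over all 3 probe sets gave -0.42 (limma adjusted p = 0.0287). Without young replicate 3 the difference was -0.65 and the call was lost (limma adjusted p = 0.0570).

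Slc25a33, on chromosome 4, had signals of 9.47, 9.36 and 9.51 in old arrays and 10.03, 10.05 and 9.78 in young arrays. The groups did not overlap, and young replicate 3 was the young value nearest to the old ones. The means were 9.45 ± 0.08 in old and 9.95 ± 0.15 in young tissue, a difference of -0.51 ± 0.10, or 0.704 times the young level (limma adjusted p = 0.0269). Its call was lost without old replicate 1, 2 or 3 or young replicate 1, with limma adjusted p of 0.0716, 0.0859, 0.0903 and 0.0767 and differences of -0.54 to -0.46.

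Slc25a14, on the X chromosome, had signals of 9.42, 9.43 and 9.42 in old arrays and 8.84, 9.13 and 8.68 in young arrays. The old values were nearly equal, while the young ones spread over 0.45 log2, with young replicate 2 the highest of them. The difference was 0.54 ± 0.11, or 1.45 times the young level (limma adjusted p = 0.0363). Without young replicate 2 it was 0.66 (limma adjusted p = 0.00703). Leaving out any other single array lost the call, with differences of 0.44 to 0.54 and limma adjusted p of 0.0965 to 0.132.

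Slc25a53, also on the X chromosome, came next, with signals of 6.40, 6.63 and 6.56 in old arrays and 6.84, 7.19 and 6.92 in young arrays. Its groups did not overlap either, but the difference of -0.45 ± 0.11 missed the threshold (limma adjusted p = 0.0578). It passed after a further quantile normalization, among brighter probe sets only, with array weights and with the replicate number as a block (limma adjusted p = 0.0267 to 0.0430). A second probe set had means of 5.66 in old and 5.77 in young arrays (limma adjusted p = 0.666).

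**Figure D2:**
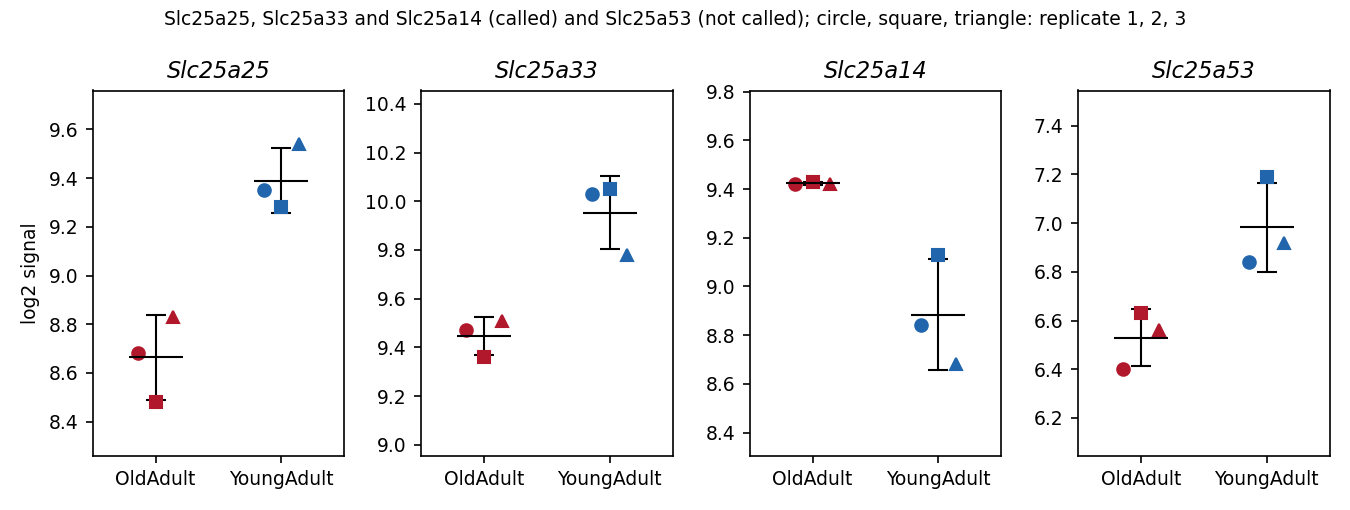
Log2 signal on each array (vertical axes, each spanning the same range) of Slc25a25, Slc25a33, Slc25a14 and Slc25a53 in OldAdult and YoungAdult lateral wall, with the mean and SD of 3 arrays as black lines. Old values lie below all young values for Slc25a25, Slc25a33 and Slc25a53 and above them for Slc25a14.

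The promoters of the 3 called carriers are shown because these genes moved with age, each as RefSeq gives it on build GRCm38.p6, from 250 bases before a start site to 50 bases after it, 5′ to 3′ on the gene's strand. The motifs searched, on both strands, were the site of NRF1, the core of ETS factors such as GABPA (CCGGAAG), the site of YY1, the cyclic AMP response element (TGACGTCA) and the E-box (CACGTG). Capitals mark a match. The window of Slc25a25 lies at chr2:32424017-32424316 on the minus strand, that of Slc25a33 at chr4:149774218-149774517 on the minus strand and that of Slc25a14 at chrX:48623198-48623497 on the plus strand.
Slc25a25: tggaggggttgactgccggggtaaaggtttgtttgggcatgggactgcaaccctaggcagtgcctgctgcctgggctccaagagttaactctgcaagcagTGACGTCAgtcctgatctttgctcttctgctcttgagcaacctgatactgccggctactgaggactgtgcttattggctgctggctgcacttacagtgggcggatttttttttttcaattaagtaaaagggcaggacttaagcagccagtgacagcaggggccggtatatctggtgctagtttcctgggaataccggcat
Slc25a33: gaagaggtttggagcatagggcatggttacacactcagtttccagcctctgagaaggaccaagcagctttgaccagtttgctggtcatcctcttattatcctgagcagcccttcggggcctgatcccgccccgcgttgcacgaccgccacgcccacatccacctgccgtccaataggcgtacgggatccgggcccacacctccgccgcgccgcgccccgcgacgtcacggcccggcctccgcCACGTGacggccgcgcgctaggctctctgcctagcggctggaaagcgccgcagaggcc
Slc25a14: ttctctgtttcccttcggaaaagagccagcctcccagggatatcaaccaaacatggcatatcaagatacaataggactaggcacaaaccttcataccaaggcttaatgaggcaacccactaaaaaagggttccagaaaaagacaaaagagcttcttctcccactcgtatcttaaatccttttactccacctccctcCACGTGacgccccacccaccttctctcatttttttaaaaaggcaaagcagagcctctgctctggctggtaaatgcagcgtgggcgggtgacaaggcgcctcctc
The cyclic AMP response element of Slc25a25 begins at position -150 from that start site, and the E-boxes of Slc25a33 and Slc25a14 begin at -8 and -54. Each of these windows holds 1 match, so no 2 matches overlap. Slc25a25 and Slc25a14 each have 3 start sites in the table, and the windows shown were chosen because they hold a match. Of the other windows of Slc25a25, 1 holds an ETS core at position 7 and 1 holds no match. Of those of Slc25a14, 1 holds the same E-box, at -184 from its own start, and 1 holds none. Which of them the lateral wall uses was not analysed here. Promoters were matched for 34 of 44 carriers, counted as holding a motif if any start site did. The cyclic AMP response element was in 2 of the 34 (5.88%), beside 2.94% of 14367 measured genes with a promoter, and the E-box in 7 (20.6%), beside 10.3%. A match of letters is a description, not a binding site.

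The carriers that link ATP synthesis to the cytosol were nearly level with age. The adenine nucleotide translocators Slc25a4 and Slc25a5, which exchange matrix ATP for cytosolic ADP, and the phosphate carrier Slc25a3 were not called. Slc25a4 had signals of 13.26, 13.38 and 13.44 in old and 13.37, 13.50 and 13.57 in young arrays, and the groups overlapped. Slc25a5 was at 13.19, 13.06 and 13.14 in old and 13.13, 13.13 and 12.98 in young arrays, and Slc25a3 at 13.54, 13.54 and 13.57 in old and 13.55, 13.49 and 13.41 in young arrays. Their differences were -0.12 ± 0.09, 0.05 ± 0.08 and 0.07 ± 0.08, and the widest of the 3 intervals, that of Slc25a4, ran from -0.32 to 0.08 at 95% confidence. The paralogs of Slc25a25 that share its substrates, Slc25a23, Slc25a24 and Slc25a41, had differences of 0.06 ± 0.08, 0.04 ± 0.08 and 0.17 ± 0.13, and none was called. Slc25a31, the translocator of male germ cells, lay below the median signal at 3.69 to 4.14 in old and 3.73 to 4.48 in young arrays.

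Of 7 measured carriers of dicarboxylates, tricarboxylates and glutamate, none was called, and their median difference was 0.05. Slc25a12 and Slc25a13, the aspartate-glutamate carriers of the malate-aspartate shuttle, had differences of -0.05 ± 0.09 and 0.24 ± 0.09. Slc25a13 had signals of 8.15, 8.17 and 8.0 in old and 7.86, 7.98 and 7.75 in young arrays, so every old value was higher, but the test did not call it (limma adjusted p = 0.188). Slc25a11, the oxoglutarate-malate carrier of the same shuttle, was at 10.71 to 10.84 in old and 10.49 to 10.65 in young arrays, a difference of 0.16 ± 0.08 that was not called (limma adjusted p = 0.348).

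Of 9 measured carriers of amino acids and acylcarnitines, none was called. Their differences reached from -0.20 for Slc25a29, a carrier of basic amino acids, to 0.30 for Slc25a48. The ornithine carrier Slc25a15 and the glycine carrier Slc25a38, which serves haem synthesis, were 0.21 ± 0.08 and 0.24 ± 0.09 higher in old arrays, short of the threshold (limma adjusted p = 0.197 and 0.199). Slc25a47 had a difference of -0.15 ± 0.08. Slc25a20, which brings acylcarnitines into the matrix for fatty acid oxidation, was at 10.66, 10.65 and 10.74 in old and 10.40, 10.71 and 10.67 in young arrays, where young replicate 1 was low and the other values overlapped.

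Of 4 carriers of iron and glutathione, none was called. Slc25a37, the mitochondrial iron importer of red cell precursors, was at 9.22, 9.40 and 9.36 in old and 9.18, 9.13 and 9.19 in young arrays, a difference of 0.16 ± 0.08 (limma adjusted p = 0.339). Its groups did not overlap and old values were higher. The summed erythroid markers were at 12.09 to 12.17 in old and 12.19 to 12.24 in young arrays, with 1 of 6 called. A link between Slc25a37 and these markers was not tested. Slc25a39, the glutathione carrier, was at 13.44 to 13.48 in old and 13.33 to 13.49 in young arrays. Among 8 carriers of cofactors and nucleotides, Slc25a33 was the one called, and the folate carrier Slc25a32 had the highest difference, 0.28 ± 0.13. Slc25a32 had signals of 7.35, 7.50 and 7.60 in old and 7.06, 7.49 and 7.05 in young arrays, and without young replicate 2, the high young value, the difference was 0.43 and was called (limma adjusted p = 0.0433). Slc25a30, an uncoupling protein relative first described in kidney, had a difference of -0.14 ± 0.11 and was not called.

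The mitochondrial ribosome genes were nearly level between the ages. Of 76 genes, 0 were called by limma at an adjusted p of 0.05. That test called 4.78% of all genes and 6.62% of the genes above the median signal, where all 76 lay. An unadjusted limma p under 0.05 was found for 16 (21.1%), beside 20.7% of all genes and 27.3% of those above the median signal. All 16 were higher in old samples, where 13.5% of all genes were higher at that p. The smallest adjusted p was 0.0807. With an intensity trend and robust variance limma called 2 (2.63%), Mrpl24 and Mrpl51, beside 6.43% of all genes in that fit. The median difference was 0.09, with 0.08 for the large and 0.10 for the small subunit. It was 0.03 over all genes and 0.05 over those above the median signal. The difference was above 0 for 59 genes (77.6%, beside 57.9% of all genes and 61.9% of those above the median signal) and below 0 for 17. After cyclic loess it was above 0 for 50 and below 0 for 26, where 55.3% of all genes lay above 0. For 15 of 76 genes the 95% confidence interval of the difference lay within 0.25 log2 of 0, for 68 within 0.5 and for all 76 within 1. For most genes a difference over 0.25 log2 is therefore not excluded.

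**Figure D3:**
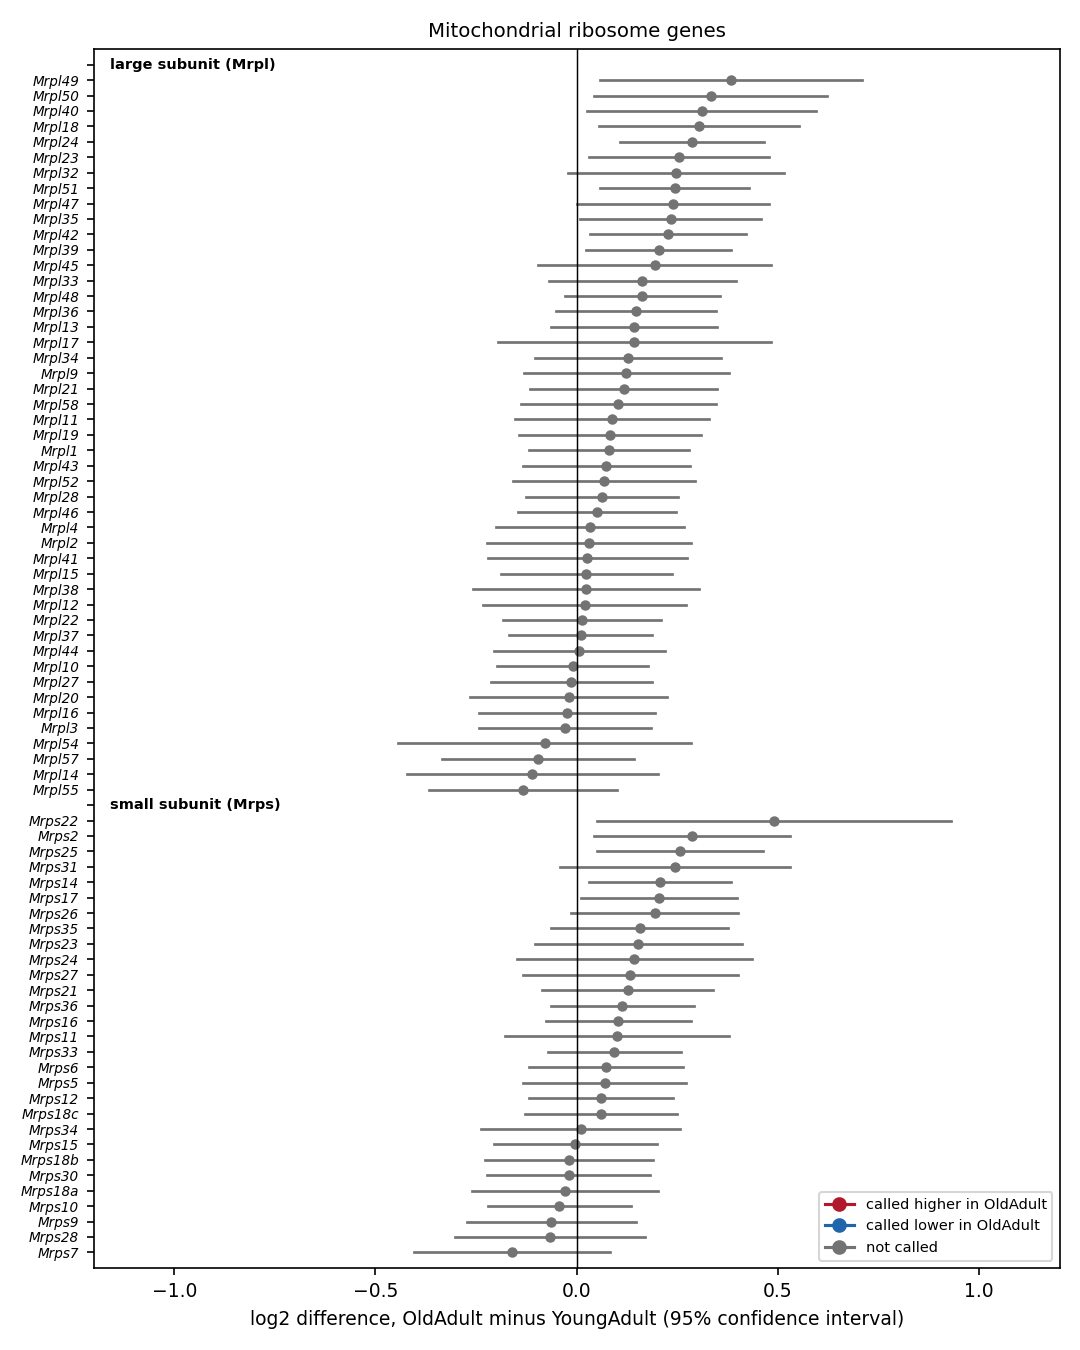
Log2 difference, OldAdult minus YoungAdult, for the 47 large-subunit and 29 small-subunit genes of the mitochondrial ribosome, with points for the difference and bars for its 95% confidence interval from limma. All differences lie between -0.16 (Mrps7) and 0.49 (Mrps22) and none is called.

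The genes did not vary independently from array to array. Old replicate 1 gave the highest signal of the 6 arrays for 41 of 76 mitochondrial ribosome genes, ties included (53.9%, beside 25% of all genes), and young replicate 1 the lowest for 57 (75% of the genes, beside 27.7% of all genes). Young replicate 2 gave the highest young signal for 57 of 76 genes (75%, beside 36.6% of all genes). The mean log2 signal over the 76 genes was 10.14, 10.04 and 10.03 in old arrays and 9.84, 10.08 and 9.99 in young arrays, so the groups overlapped and young replicates 1 and 2 stood at the 2 ends of the young range. The SD among young arrays was larger than that among old arrays for 65 of 76 genes, beside 64.7% of all genes, with medians of 0.07 in old and 0.14 in young arrays. Over all genes those medians were 0.08 in old and 0.12 in young arrays. The carriers had no such common shift, with array means of 8.97, 8.93 and 8.98 in old and 8.90, 8.96 and 8.90 in young arrays.

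**Figure D4:**
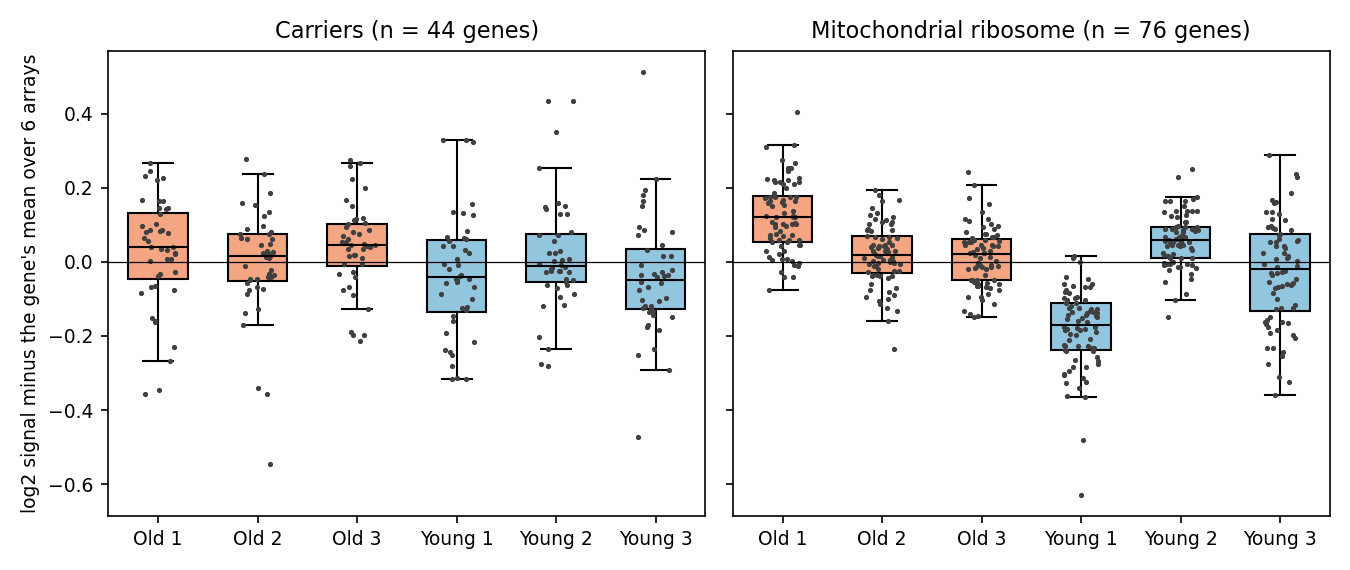
Log2 signal of each gene minus its own mean over the 6 arrays, for 44 carriers (left) and 76 mitochondrial ribosome genes (right), with old arrays left of young arrays. Boxes show the median and quartiles, whiskers reach to the farthest point within 1.5 times the box height, and dots are genes: the ribosome genes lie mostly below 0 in young replicate 1 and mostly above 0 in old replicate 1 and young replicate 2.

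In the small subunit, Mrps22, a protein found only in mitochondrial ribosomes, had the highest difference. Its signals were 9.17, 9.04 and 9.10 in old arrays and 8.23, 9.11 and 8.50 in young arrays. Young replicate 2 lay within the old range, while the other young values lay far below it. The difference was 0.49 ± 0.19 (limma adjusted p = 0.207), with a 95% confidence interval from 0.05 to 0.93. Mrps2, whose loss in humans impairs hearing among other signs, was at 9.31, 9.44 and 9.42 in old and 9.02, 9.32 and 8.97 in young arrays, a difference of 0.29 ± 0.11 (limma adjusted p = 0.182). Mrps7, in which human variants have likewise been linked to deafness, had the lowest difference of the ribosome, -0.16 ± 0.11, with 9.75, 9.52 and 9.53 in old and 9.60, 9.91 and 9.77 in young arrays (limma adjusted p = 0.492). Mrps28 had a difference of -0.07 ± 0.10. Mrps12, the relative of bacterial S12 at the decoding site, was at 10.85 to 10.92 in old and 10.75 to 10.90 in young arrays, and Mrps18b had a difference of -0.02 ± 0.09. Both were level within an interval of 0.25 log2 on either side.

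In the large subunit, Mrpl24, the relative of bacterial L24, had the smallest p of the ribosome. It was at 11.20, 11.08 and 11.07 in old and 10.84, 10.87 and 10.78 in young arrays, without overlap, a difference of 0.29 ± 0.08 that missed the threshold (limma adjusted p = 0.0807). It passed among brighter probe sets only, with array weights and with an intensity trend and robust variance (limma adjusted p = 0.0277 to 0.0464). Mrpl49 and Mrpl50, which have no bacterial counterpart, came to 0.38 ± 0.14 and 0.33 ± 0.13 without passing the test (limma adjusted p = 0.182 and 0.191). Mrpl49 was at 8.95, 8.92 and 8.96 in old and 8.27, 8.89 and 8.52 in young arrays, with young replicate 2 just under the old values. Mrpl40 and Mrpl18 had differences of 0.31 ± 0.12 and 0.30 ± 0.11. The lowest differences were those of Mrpl55, Mrpl14, Mrpl57 and Mrpl54, at -0.13 ± 0.10, -0.11 ± 0.14, -0.10 ± 0.10 and -0.08 ± 0.16. Mrpl12, a stalk protein of the large subunit, was at 10.97, 10.63 and 10.69 in old and 10.61, 10.81 and 10.81 in young arrays, and Mrpl3, which lies near the peptidyl transferase centre, at 9.58 to 9.62 in old and 9.46 to 9.73 in young arrays.

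Old and young groups did not overlap for 15 mitochondrial ribosome genes, or 19.7%, all with higher old values. The share was 26.7% of all genes (17% with old above young and 9.7% with old below young). Of the genes above the median signal it was 34.9%. Among the carriers the groups did not overlap for 14 (31.8%), with 9 higher and 5 lower in old arrays.

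Without young replicate 2, the array whose Xist signal stood apart, 7 mitochondrial ribosome genes were called, all higher in old samples, or 9.21%, near the 8.35% of all genes called in that fit. They were Mrps22, Mrpl49, Mrpl50, Mrps2, Mrpl32, Mrps31 and Mrpl47, with differences of 0.74, 0.55, 0.49, 0.39, 0.38, 0.39 and 0.35 and limma adjusted p of 0.00945 to 0.0466. The median difference of the ribosome was then 0.14. Without young replicate 1 it was 0.02, and 0 genes were called.

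**Figure D5:**
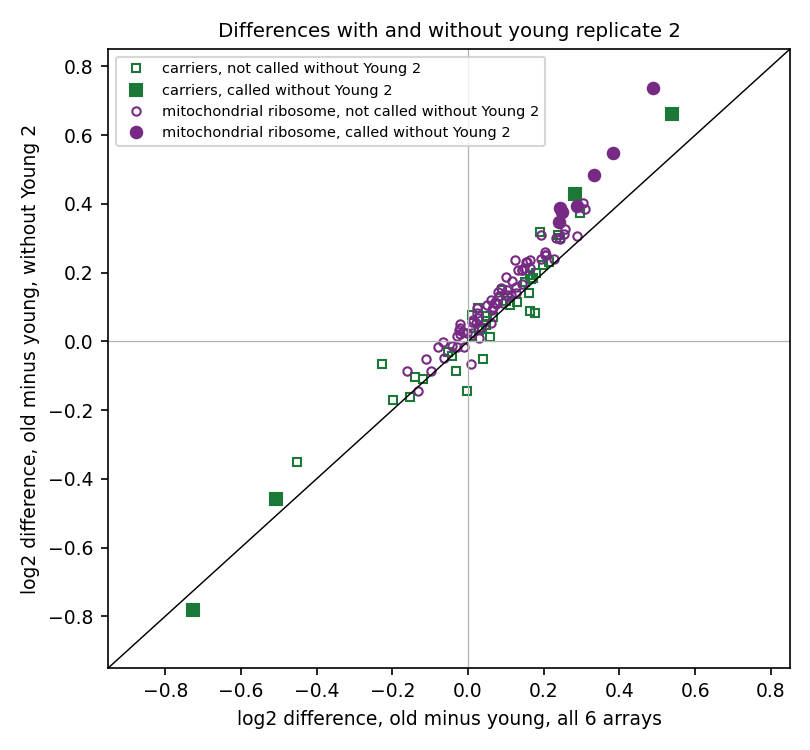
Log2 difference, OldAdult minus YoungAdult, with all 6 arrays (horizontal axis) and without young replicate 2 (vertical axis), for carriers (squares) and mitochondrial ribosome genes (circles), filled where called without that array. Most ribosome genes lie above the line of equality, and the 7 filled circles run from 0.35 to 0.74 on the vertical axis.

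Of 42 ribosome genes with several probe sets, 3 had another one called while the brightest was not. Over all tested probe sets, limma called 2119 of 45037. Mrpl15 had 8 probe sets, of which the brightest was at 10.50 to 10.55 in old and 10.33 to 10.62 in young arrays. A dimmer one was at 7.18, 7.36 and 7.26 in old and 7.93, 7.97 and 8.06 in young arrays, a difference of -0.72 ± 0.08 (limma adjusted p = 0.00423). A dim probe set of Mrpl51, below the median signal, had a difference of -0.37 ± 0.08 (limma adjusted p = 0.0342), opposite in sign to the brightest, at 0.24 ± 0.08. For Mrps11 a probe set also below the median signal was at 6.27, 5.86 and 6.01 in old and 5.58, 5.17 and 4.95 in young arrays. It gave 0.81 ± 0.17 (limma adjusted p = 0.0323), while the brightest gave 0.10 ± 0.12. Of 29 ribosome genes with a second probe set above the median signal, 21 had the same sign of difference in both.

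Promoters were matched for 67 of 76 mitochondrial ribosome genes. The ETS core was in 25 of them (37.3%), beside 15% of 14367 measured genes, the YY1 site in 5 (7.46%, beside 1.64%) and the NRF1 site in 3 (4.48%, beside 1.75%). The cyclic AMP response element was in 2 (2.99%, beside 2.94%) and the E-box in 5 (7.46%, beside 10.3%). Median GC content was 58.0% in these promoters and 58.7% over all measured genes. Those of Mrps22, at chr9:98601630-98601929 on the minus strand, and Mrpl49, at chr19:6057706-6058005 on the minus strand, are shown as the genes with the highest difference of each subunit, in the same window and with capitals for a match.
Mrps22: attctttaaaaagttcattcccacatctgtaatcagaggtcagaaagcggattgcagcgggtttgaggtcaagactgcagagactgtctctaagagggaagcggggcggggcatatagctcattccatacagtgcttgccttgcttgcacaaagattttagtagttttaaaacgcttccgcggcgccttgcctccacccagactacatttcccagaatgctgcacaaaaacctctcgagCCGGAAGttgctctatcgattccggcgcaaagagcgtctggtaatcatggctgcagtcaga
Mrpl49: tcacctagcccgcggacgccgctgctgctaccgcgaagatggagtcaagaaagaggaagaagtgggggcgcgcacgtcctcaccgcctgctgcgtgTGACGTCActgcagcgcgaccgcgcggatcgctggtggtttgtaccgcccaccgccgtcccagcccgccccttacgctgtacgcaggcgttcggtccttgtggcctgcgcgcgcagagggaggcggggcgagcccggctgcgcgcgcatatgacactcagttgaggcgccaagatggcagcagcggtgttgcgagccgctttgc
The ETS core of Mrps22 begins at position -11 and the cyclic AMP response element of Mrpl49 at -154.

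Genes that act with the mitochondrial ribosome were called singly, at shares near the 4.78% of all genes: 5% of assembly factors, 7.69% of translation factors and 5.26% of synthetases. Of 20 measured ribosome assembly factors, 1 was called higher, Tfb1m, which methylates the small-subunit ribosomal RNA, and 0 lower. Tfb1m was at 8.76, 8.44 and 8.45 in old and 7.87, 8.13 and 8.02 in young arrays, a difference of 0.54 ± 0.11 (limma adjusted p = 0.0343). The differences of 18 of these 20 factors were above 0 (90%, beside 57.9% of all genes), with a median of 0.14, beside 0.03 over all genes. Of the genes above the median signal, where all 20 lay, 61.9% were above 0, with a median of 0.05. Of 13 translation factors, 1 was called higher, Mrrf, which releases the ribosome from the messenger RNA after termination. Mrrf was at 8.79, 8.67 and 8.73 in old and 8.28, 8.48 and 8.31 in young arrays, a difference of 0.37 ± 0.09 (limma adjusted p = 0.0471). Of 19 mitochondrial aminoacyl-tRNA synthetases, 1 was called higher, the tryptophan enzyme Wars2. It was at 6.68, 6.75 and 6.80 in old and 6.13, 6.46 and 6.15 in young arrays, without overlap, a difference of 0.50 ± 0.10 (limma adjusted p = 0.0355). Of 4 measured ribosome proteins with other symbols, such as Dap3, none was called, and the same held for 12 measured cytosolic ribosome proteins, whose median was 0.05.

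Of 13 regulators of mitochondrial biogenesis, 1 was called (7.69%, beside 4.78% of all genes), the coactivator Ppargc1a, which was lower in old samples. Ppargc1a was at 10.60, 10.68 and 10.73 in old and 11.46, 11.25 and 11.00 in young arrays, without overlap, a difference of -0.57 ± 0.12 (limma adjusted p = 0.0343). The mitochondrial transcription and packaging factor Tfam had a difference of 0.30 ± 0.11 (limma adjusted p = 0.156), and the transcription factors Nrf1 and Gabpa had 0.06 ± 0.09 and 0.05 ± 0.08. Of 23 protein import genes, 1 was called higher (4.35%, likewise near the share of all genes), Timm21, a subunit of the inner membrane translocase. It was at 8.93, 9.01 and 8.96 in old and 8.36, 8.63 and 8.23 in young arrays, a difference of 0.56 ± 0.11 (limma adjusted p = 0.0275). Of 15 other carriers and channels of mitochondria, including the uncoupling proteins Ucp1 and Ucp3 and the outer membrane channels Vdac1, Vdac2 and Vdac3, none was called.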

How the data were processed

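Total RNA was labelled with the Affymetrix 3′ IVT Express kit and hybridised with 1 sample per array, per the labels' protocols. RMA, MAS5 and Affymetrix Expression Console appear in the submitters' processing notes, without versions or an account of which step each served. The deposited table holds log2 signals for 45101 probe sets on 6 arrays, from 2.66 to 14.76, with array medians of 6.26 to 6.30. With medians this close, a shift shared by most genes could not be seen. The precision is limited by 3 arrays per age.

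The 64 control probe sets were left out. Platform annotation gave 1 symbol to 34945 probe sets, several to 932 and none to 9160. For each gene the probe set with the highest mean log2 signal was taken. Mrpl30 and Mrpl53, found only on probe sets with several symbols, are not included. A limma fit (version 3.58.1, R 4.3.3) over 45037 probe sets had age as its only term and Benjamini-Hochberg adjustment over all of them. It was tested on simulated data with independent probe sets and added differences larger than that of any member. That test does not speak to differences of the size seen here. Alternatives were other scalings, a filter on dim probe sets, other variance models, other ways to pick a probe set, a stricter threshold, a replicate block and leaving out each array.

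The members and lists were chosen with earlier results of these data known. Genes named are all called members, the 6 highest and 6 lowest differences of each family, a fixed set of carriers and ribosome proteins, members with another probe set called, and called genes of the other lists. Promoters come from RefSeq, build GRCm38.p6. Figures were drawn with matplotlib 3.10.9.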

Additional observations from a re-analysis of the deposited data

How the results depend on the processing

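The number of called carriers was 3, and 3 or 4 under every other scaling, filter, variance model and choice of probe set tried, the replicate block included. It was 0 at an adjusted p of 0.01, and 1 to 4 with 1 array left out: 1 without old replicate 1, 2 or 3 or young replicate 1 or 3, and 4 without young replicate 2. Fewer samples were then fitted, and 1.25% to 8.35% of all genes were called. The number of called mitochondrial ribosome genes was 0, and it was 1 among brighter probe sets only, after averaging each gene's probe sets and for the next brightest one, 2 with an intensity trend and robust variance and 2 with array weights. The gene called after averaging and for the next brightest probe set was Mrps11. With 1 array left out the number of called ribosome genes ran from 0 to 7. The median difference of the carriers was 0.08 with array weights and 0.05 to 0.09 with 1 array left out. That of the mitochondrial ribosome was 0.02 to 0.14 with 1 array left out. Both medians stayed above 0 in every setting tried. No called member changed direction.

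Of all genes, 4.78% were called as reported, 10.5% with array weights, 9.43% among brighter probe sets and 1.05% at an adjusted p of 0.01. The labels give both ages replicate numbers 1 to 3, but do not say that a number pairs samples. Deviations from the group means of same-numbered arrays correlated at 0.14, 0.08 and 0.01, so the numbers were not taken as pairs. With the replicate number as a block, 4 carriers and 0 ribosome genes were called, with medians of 0.05 and 0.09. The cause of these dependences was not tested. Of the carriers, 6 lay below the median signal, where a difference is harder to see, and no ribosome gene did.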
